A study of Mus musculus with 12 samples.

Results

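Cyclins and their kinases were described through 10 genes, chosen by symbol from the 34513 genes of the deposited count table. They are the D-type cyclins Ccnd1, Ccnd2 and Ccnd3, the E-type cyclins Ccne1 and Ccne2, the S and G2/M cyclins Ccna2 and Ccnb1, and the kinases Cdk2, Cdk4 and Cdk6. All 10 passed the filter on low counts, and the rule itself uses no measured value. The RNA came from cultures of 3 mouse lines, Melan-A (written MelanA in the sample labels), an immortalised nontumorigenic melanocyte line, and B16F0 and B16F10, melanoma lines of which B16F10 is the derivative selected for lung colonisation. Each line was sequenced untreated and after SX-682, an antagonist of the chemokine receptors CXCR1 and CXCR2, giving 6 groups of 2 libraries. The question was how the antagonist acts on the transcripts of these cells in culture, apart from the other cells of a tumor. The study states a dose, a time and a vehicle for a staining assay of the same lines, but the text used here does not state them for these libraries, whose controls the labels call untreated. The labels do not say that the 2 libraries of a group came from separate cultures, so the p-values measure the spread between these libraries, which may be technical.

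A cyclin is the regulatory subunit that switches on a cyclin-dependent kinase (CDK). D-type cyclins with CDK4 or CDK6 phosphorylate the retinoblastoma protein in G1, E2F factors are released, and cyclin E with CDK2 carries the cell into S phase. Cyclin A2 then acts with CDK2 and CDK1 through S phase and G2, and cyclin B1 with CDK1 drives mitosis. In the pigment lineage CDK4 and its inhibitor p16 are familial melanoma genes, and Cdk2 lies head to head with Pmel, a pigment-cell gene, with MITF described as a regulator of both.

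Promoter sequences were at hand for 6 of the 10 members. Of these, 3 are printed because their transcripts mark the extremes of what follows. Cdk2 differed most between the lines, Cdk4 had the smallest SX-682 change that passed the test in Melan-A and in B16F0, and the SX-682 change of Ccnb1 differed most among the lines. Each sequence is that of RefSeq on GRCm38.p6, read 5′ to 3′ on the strand of the gene, from 250 bases before to 50 bases after an annotated start. Capitals mark matches to the letters of an E2F site (TTCCCGC in its first form, TTCGCGC in the next, TTGCCGC in another and TTGGCGC in the last), a CCAAT box (CCAAT) or an E-box (CACGTG in one form and CATGTG in the other), each searched on both strands.
Cdk2: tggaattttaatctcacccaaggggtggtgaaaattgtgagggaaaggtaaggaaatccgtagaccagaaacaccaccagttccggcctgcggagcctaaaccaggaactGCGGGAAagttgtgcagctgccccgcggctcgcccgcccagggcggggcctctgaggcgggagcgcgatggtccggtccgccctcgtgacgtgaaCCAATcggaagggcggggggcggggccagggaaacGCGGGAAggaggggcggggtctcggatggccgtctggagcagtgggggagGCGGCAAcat
Cdk4: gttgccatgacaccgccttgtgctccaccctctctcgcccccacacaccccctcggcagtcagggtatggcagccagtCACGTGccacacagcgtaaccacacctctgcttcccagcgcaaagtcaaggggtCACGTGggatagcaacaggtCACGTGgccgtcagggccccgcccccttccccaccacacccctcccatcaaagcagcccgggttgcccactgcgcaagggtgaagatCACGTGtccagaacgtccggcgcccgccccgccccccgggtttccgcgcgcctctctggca
Ccnb1: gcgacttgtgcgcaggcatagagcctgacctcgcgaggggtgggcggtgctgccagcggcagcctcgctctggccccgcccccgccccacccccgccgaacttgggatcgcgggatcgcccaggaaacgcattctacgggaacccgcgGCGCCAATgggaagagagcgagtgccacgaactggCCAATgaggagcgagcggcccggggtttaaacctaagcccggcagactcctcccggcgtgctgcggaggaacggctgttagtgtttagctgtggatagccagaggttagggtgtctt
The Cdk2 window, chr10:128705002-128705301 on the minus strand, held 3 E2F matches, at -140, -10 and 41 from the start, and 1 CCAAT box at -45. E2F letters were present in 9.57% of the 32851 RefSeq promoters of this length, and 0.131% held at least 3 such matches. The Cdk4 window, chr10:127063285-127063584 on the plus strand, held 4 E-boxes, at -172, -118, -98 and -11, all spelled CACGTG. An E-box stood in 20.4% of the promoters and at least 4 of them in 0.18%. The Ccnb1 window, chr13:100786437-100786736 on the minus strand, held CCAAT boxes at -99 and -67, as 11.7% of promoters held at least 2. Its single E2F match, at -102, overlaps the first of these CCAAT boxes. The element known as CHR was searched too, in the spelling TTTGAA only, which was found in 17.9% of promoters and had no match in these windows. Other spellings of CHR were not searched, so its absence is not shown. These are letters in a window, and binding was not measured.

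The libraries held between 48876982 and 85322092 counts, and member counts lay between 315, for Ccne2 in a treated B16F0 library, and 91070, so counting error weighs most on Ccne2. CPM values, the counts of a gene per 1000000 counts of its library, were adjusted by the trimmed mean of M values (TMM). Levels of different genes are compared only as CPM per kilobase of exonic length. The pigment-cell markers agreed only in part with the name melanocyte for Melan-A, in which Sox10 stood at 655 and 685 CPM and Dct at 358 and 351 CPM without treatment, but Tyr at 0.892 and 0.76 CPM and Pmel at 7.53 and 8.7 CPM. The 7 markers summed to between 1340 and 1370 CPM in Melan-A cells, 18600 and 18700 CPM in B16F0 and 24400 and 24500 CPM in B16F10, all untreated. With SX-682 the sums lay between 1350 and 1360 CPM, 15800 and 16000 CPM, and 14900 and 15200 CPM. Markers of keratinocytes, fibroblasts, leukocytes and endothelium, 13 genes of which 10 passed the filter, summed to between 78 and 78.5 CPM in untreated and 103 CPM in treated Melan-A, and to between 26.4 and 35.9 CPM in the B16 libraries. Krt1, Krt5 and Cd3e were under the filter. The largest part of the untreated Melan-A sum was the fibroblast marker Col1a1, at 45.7 and 47.1 CPM, against 2.5 to 8.93 CPM in the B16 libraries. The difference between the treated and untreated Melan-A sums was carried by Cd68, a lysosomal gene used as a macrophage marker. Cd68 stood at 15.9 and 16.1 CPM untreated and 43.9 and 45.3 CPM treated (log2 fold change 1.48, adjusted p = 1e-17). It moved with the fall of the cyclins there, and its part in that was not tested. In RNA from whole cultures, fewer cells in a cell-cycle phase and less RNA per cell cannot be told apart.

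These transcripts were lower together after SX-682. In Melan-A all 10 members fell, in B16F0 9 of 10 and in B16F10 all 10, and none rose in any line, although Cdk6 in B16F0 was called higher under 3 alternatives. Among all 18338 genes tested, 24.7%, 25% and 25.3% were called lower in the same comparisons, and 48.2%, 50.1% and 50.8% in either direction. These shares include genes with few counts. In a fit of the 12326 genes with at least 10 counts in every library, as all members had, 8152, 8410 and 8738 were called in either direction, which is a larger share. The median log2 fold change over the 10 members was -0.61 in Melan-A cells, -0.43 in B16F0 and -0.32 in B16F10, beside a median of 0 over all genes in each line. In all 3 lines 9 members were lower, the exception being Cdk6, and 11.7% of all genes were. With a log2 limit of 0.5 added, 6 members passed in Melan-A cells, 5 in B16F0 and 4 in B16F10, beside 16.3%, 19.4% and 21.5% of all genes. Those lower by that much in all 3 lines were 3 members, Ccnd1, Ccne1 and Ccne2, beside 1.97% of all genes. Calls are at an adjusted p under 0.05 from edgeR's quasi-likelihood test with Benjamini-Hochberg adjustment over all genes tested, and each log2 fold change is given with its standard error (SE). With 2 libraries against 2, an exact permutation test of a single gene cannot go below 0.333, so the fit over all genes carries every test.

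**Figure D1:**
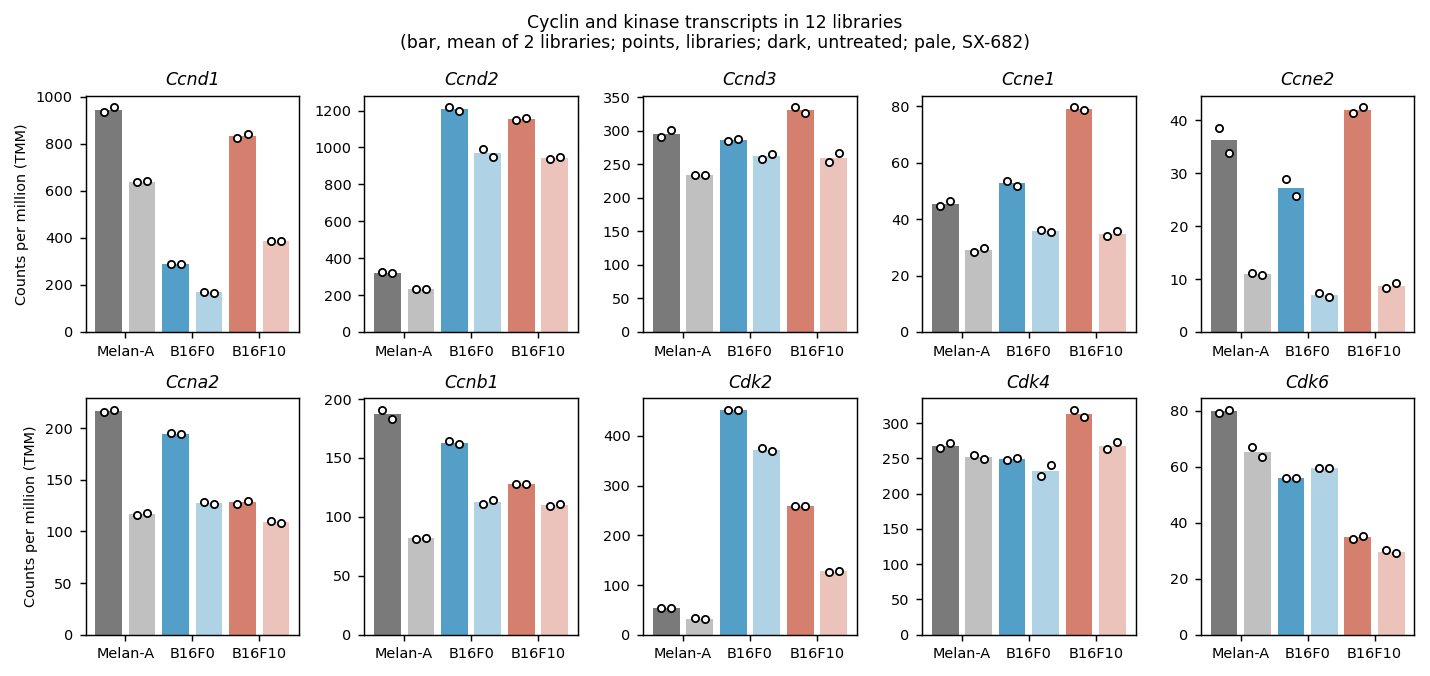
CPM (TMM-scaled) of the 10 genes, 1 panel each with its own axis from 0; bars are means of 2 libraries, open points the libraries, dark bars untreated and pale bars SX-682. The pale bar is lower in every panel and line except Cdk6 in B16F0, where the SX-682 libraries were at 59.7 and 59.4 CPM against 55.9 and 56 CPM.

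Ccnd1 encodes cyclin D1, the G1 cyclin that mitogen signalling induces (chromosome 7, 144929931 to 144939925, minus strand). Untreated libraries held 934 and 957 CPM in Melan-A, 291 and 291 CPM in B16F0, and 825 and 840 CPM in B16F10. After SX-682 the same lines held 638 and 641 CPM, 172 and 164 CPM, and 385 and 388 CPM. Treated and untreated libraries did not overlap in any line, and both treated B16F10 libraries were under both treated Melan-A libraries. The log2 fold change of Ccnd1 was smallest in Melan-A, -0.56 ± 0.022 (adjusted p = 1.2e-18), followed by B16F0 with -0.79 ± 0.024 (adjusted p = 1.5e-21), and largest in B16F10, -1.11 ± 0.023 (adjusted p = 9.2e-26). Ccnd1 thus fell by 53.6% in B16F10 and by 32.4% in Melan-A. Each pair of lines differed in this change, by -0.54 ± 0.032 on the log2 scale between B16F10 and Melan-A (adjusted p = 3e-14). LTO1, on the opposite strand, shares 23.4% of the exonic bases of Ccnd1. Its mean level was between 9.81 and 28 CPM over the groups, with SX-682 changes of -0.15, -0.67 and -0.58 (log2, adjusted p = 0.052, 1.2e-08 and 4.5e-08), and its part in these values was not tested.

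Ccnd2 encodes cyclin D2 (chromosome 6, 127125162 to 127152193, minus strand), and it was the D-type cyclin in which the melanoma lines stood apart from Melan-A. Untreated it was at 325 and 318 CPM in Melan-A cells, 1220 and 1200 CPM in B16F0 and 1150 and 1160 CPM in B16F10. With SX-682 it was at 231 and 231 CPM, 993 and 950 CPM, and 937 and 946 CPM. Untreated B16F0 was 3.77-fold and untreated B16F10 3.6-fold above untreated Melan-A (adjusted p = 2.4e-33 and 6.2e-33). The groups of the 2 melanoma lines lay close together, with a difference of -0.07 ± 0.021 (log2, B16F10 minus B16F0, adjusted p = 0.0089) that did not pass when any of 3 single libraries was left out. SX-682 lowered Ccnd2 by 28.2% in Melan-A, and its level fell by 19.7% in B16F0 and by 18.6% in B16F10. Melan-A lost more of it than either melanoma line, and the change in B16F10 differed from that in B16F0 by 0.02 ± 0.03 (log2, adjusted p = 0.73).

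Ccnd3 encodes cyclin D3 (chromosome 17, 47505051 to 47599691, plus strand) and was the most even of the D-type cyclins. Its libraries held 291 and 301 CPM in untreated Melan-A, 285 and 288 CPM in B16F0 and 336 and 327 CPM in B16F10. Treated libraries held 235 and 235 CPM, 258 and 266 CPM, and 253 and 267 CPM. Both untreated B16F0 libraries were under both Melan-A libraries, with a log2 difference of -0.05 ± 0.027 (adjusted p = 0.1) that passed under 4 of the alternatives. The SX-682 change was -0.34 ± 0.027 in Melan-A cells, -0.13 ± 0.027 in B16F0 and -0.35 ± 0.027 in B16F10 (log2, adjusted p = 7.4e-12, 0.00017 and 2.7e-12). B16F0 therefore lost less of it than the other lines, by 0.21 ± 0.038 against Melan-A (adjusted p = 6.1e-05).

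Per kilobase, the D-type cyclins changed in make-up as well as in amount. Their summed level was between 266 and 271 CPM per kilobase in untreated Melan-A, 223 in both untreated B16F0 libraries and between 336 and 339 in untreated B16F10. After SX-682 the sums lay between 187 and 187, 166 and 171, and 210 and 213 CPM per kilobase. Ccnd1 made up 74.7% ± 0.25 (SD, n = 2) of the sum in untreated Melan-A, 27.7% ± 0.083 in B16F0 and 52.4% ± 0.35 in B16F10. Its share was 72.6% ± 0.082, 21.1% ± 0.24 and 38.7% ± 0.2 with the antagonist, lower in both libraries of every line. Ccnd2 thereby became the largest of the family in treated B16F10, at 47.3% ± 0.16 from 36.4% ± 0.082. In Melan-A its share differed little, at 13% and 12.4% untreated and 13.1% in each treated library. Shares depend on the lengths used, and with the longest transcript in place of the union of exons the Ccnd1 share in B16F10 went from 45.3% to 32.3%. No test was made of shares.

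**Figure D2:**
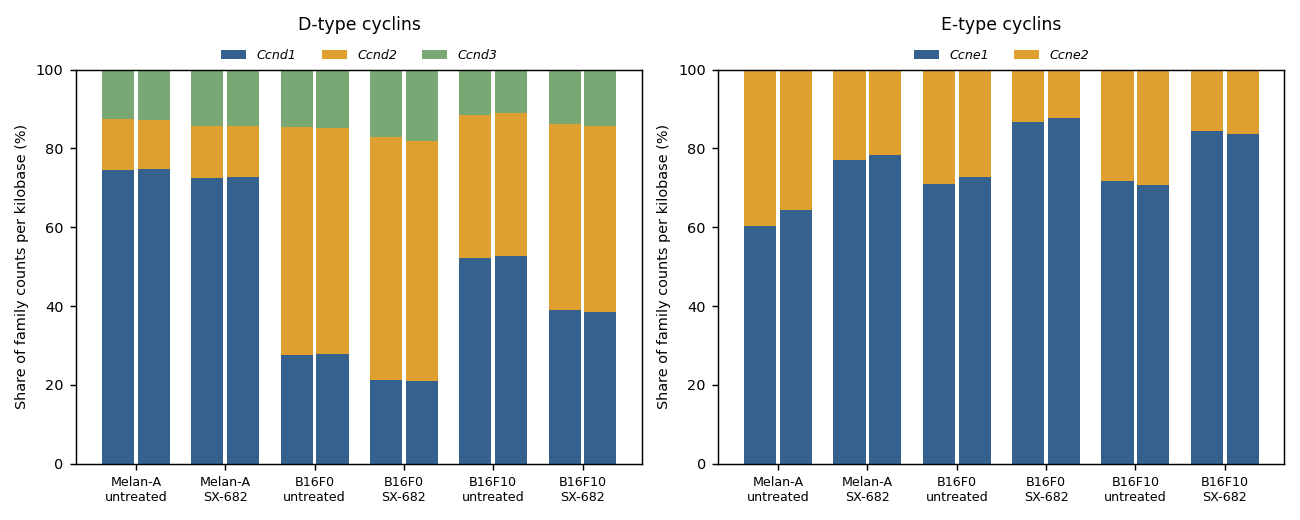
Share of each cyclin in the summed counts per kilobase of its family (%), 1 stacked bar per library. Ccnd1 is the largest D-type share in Melan-A (74.7% untreated) and Ccnd2 in B16F0 (57.7%), while in B16F10 the order turns between untreated and SX-682; Ccne2 shrinks beside Ccne1 in every line.

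The E-type cyclins activate CDK2 at the entry to S phase. Ccne1 (chromosome 7, 38097984 to 38107534, minus strand) was at 44.7 and 46.3 CPM in untreated Melan-A, 53.6 and 51.9 CPM in B16F0 and 79.8 and 78.6 CPM in B16F10. SX-682 libraries were at 28.3 and 29.7 CPM, 36.3 and 35.4 CPM, and 33.9 and 35.9 CPM. The untreated order, with B16F10 highest, was gone with SX-682, where the B16F0 and B16F10 libraries overlapped. The log2 fold change was -0.65 ± 0.044 in Melan-A cells, -0.56 ± 0.045 in B16F0 and -1.18 ± 0.044 in B16F10 (in that order, adjusted p = 2.9e-13, 9.2e-12 and 1.2e-19). That of B16F10 was larger than the change of either other line, by -0.62 ± 0.063 against B16F0 (adjusted p = 5.2e-09), and those of Melan-A and B16F0 were 0.09 ± 0.063 apart (adjusted p = 0.31).

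Ccne2 (chromosome 4, 11191351 to 11204779, plus strand) had the largest SX-682 change of the 10 members in each of the 3 lines. It was at 38.6 and 33.7 CPM in untreated Melan-A, 28.8 and 25.6 CPM in B16F0 and 41.3 and 42.5 CPM in B16F10. Treated libraries held 11.1 and 10.8 CPM, 7.32 and 6.54 CPM, and 8.21 and 9.25 CPM. Every treated library was under 12 CPM and every untreated one above 25 CPM. Its level fell by 69.7%, by 74.4% and by 79.2%, with log2 fold changes of -1.72 ± 0.073, -1.96 ± 0.083 and -2.26 ± 0.078 (adjusted p = 4.3e-18, 3.8e-18 and 1.9e-20). Of all genes tested, 2.13% in Melan-A and 2.55% in each melanoma line had a lower log2 fold change. Against Melan-A the change in B16F10 was larger by -0.54 ± 0.11 (adjusted p = 2e-04), and against B16F0 by -0.3 ± 0.12 (adjusted p = 0.056), a difference that did pass with RLE scaling (adjusted p = 0.039). Ccne2 had the largest standard errors of the 10 members, and its untreated difference between B16F10 and Melan-A, 0.21 ± 0.065, did not pass without the second untreated Melan-A library (0.13, adjusted p = 0.13).

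As a share of the E-type sum per kilobase, Ccne2 stood at 37.7% ± 2.8 without and 22.3% ± 0.86 with SX-682 in Melan-A, 28.2% ± 1.2 and 12.8% ± 0.68 in B16F0, and 28.7% ± 0.63 and 16% ± 0.58 in B16F10 (SD, n = 2). The sum itself was between 27 and 27.8 CPM per kilobase in untreated Melan-A, 26.8 and 28.4 in B16F0 and 41.7 and 41.8 in B16F10. Treated sums lay between 13.8 and 16.1 in all 3 lines. Of the exonic bases of Ccne2, 17.4% are also exonic in Ints8, which is read from the other strand. Ints8 was at mean levels of 49.6, 43.9 and 58.4 CPM untreated. This is above Ccne2 in CPM only, as the 2 genes were not compared per kilobase. Ints8 had SX-682 changes of -0.5, -0.41 and -0.35 (log2). Whether counting used strand is not given in the sources used here, and the part of Ints8 reads in the Ccne2 values was not tested.

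The S and G2/M cyclins followed another order of lines. Ccna2 encodes cyclin A2 (chromosome 3, 36564865 to 36572150, minus strand). Untreated libraries held 216 and 218 CPM in Melan-A cells, 195 and 194 CPM in B16F0 and 127 and 130 CPM in B16F10. Treated ones held 116 and 118 CPM, 129 and 127 CPM, and 110 and 108 CPM. The 3 lines, well separated without treatment, all lay between 108 and 129 CPM with it. The log2 fold change was -0.89 ± 0.027 in Melan-A cells, -0.61 ± 0.028 in B16F0 and -0.24 ± 0.028 in B16F10 (in that order, adjusted p = 2.4e-21, 2e-17 and 2.8e-08). Exosc9, on the opposite strand, shares 12.5% of the exonic bases of Ccna2 and had changes between 0.04 and 0.16 (log2), in the other direction.

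Ccnb1 encodes cyclin B1, the partner of CDK1 at mitosis (chromosome 13, 100778650 to 100786570, minus strand), and its promoter is the one printed above with paired CCAAT boxes. It was at 191 and 183 CPM in untreated Melan-A, 164 and 162 CPM in B16F0 and 128 and 128 CPM in B16F10. With SX-682 it was at 81.6 and 82.4 CPM, 111 and 114 CPM, and 109 and 111 CPM. Melan-A thus moved from the highest of the lines to the lowest, with no overlap between its treated libraries and those of the others. Its level fell by 56.2% in Melan-A (log2 -1.19 ± 0.03, adjusted p = 2e-23), by 31.2% in B16F0 (-0.54 ± 0.03, adjusted p = 2.1e-15) and by 14% in B16F10 (-0.22 ± 0.03, adjusted p = 4e-07). The difference between the changes in B16F10 and Melan-A was 0.97 ± 0.042 (log2, adjusted p = 3e-17), and that between B16F10 and B16F0 was 0.32 ± 0.043 (adjusted p = 6.6e-07). No annotated gene shares exonic bases with Ccnb1 or Ccne1, and the single genes that overlap Ccnd2, Ccnd3 or Cdk6 each cover at most 4.11% of them.

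Whether the SX-682 change of a gene differed among the lines was tested directly, and all 10 members passed, as did 47.4% of all genes. By pairs of lines, 7 members passed between B16F0 and Melan-A, 8 between B16F10 and Melan-A and 8 between B16F10 and B16F0, beside 34.4%, 33.8% and 30.3% of all genes. Ccnd1 and Ccne1 fell more in B16F10 than in both other lines, and Ccne2 more than in Melan-A. Ccna2 and Ccnb1 fell least in B16F10 and most in Melan-A, with each pair of lines apart. B16F10 was therefore the line of the largest change for Ccnd1 and Ccne1 and of the smallest for Ccna2 and Ccnb1. Cdk2 also fell most in B16F10. The other D-type cyclins did not follow Ccnd1. Ccnd2 fell most in Melan-A, and the Ccnd3 changes of B16F10 and Melan-A were -0.01 ± 0.038 apart (log2, adjusted p = 0.86 in the same test).

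**Figure D3:**
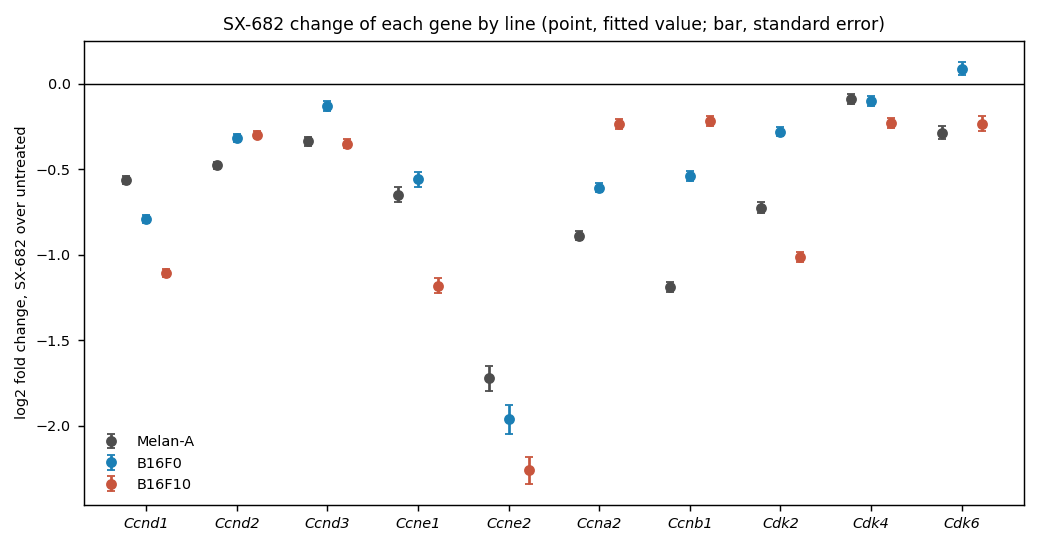
Log2 fold change of each gene, SX-682 over untreated, in Melan-A, B16F0 and B16F10; points are fitted values and bars standard errors. Ccne2 is lowest in every line (-1.72, -1.96 and -2.26), Ccnb1 runs from -1.19 in Melan-A to -0.22 in B16F10, and Cdk4 lies between -0.09 and -0.23.

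Cdk2 encodes the kinase that cyclins E and A2 activate (chromosome 10, 128697939 to 128705031, minus strand), and it was the member that separated the lines most. Untreated Melan-A held 54.7 and 53.1 CPM, B16F0 453 and 452 CPM, and B16F10 259 and 259 CPM. Treated libraries held 33.5 and 31.7 CPM, 375 and 370 CPM, and 127 and 129 CPM. No group overlapped another, and every B16 library, treated or not, was above every Melan-A library. Untreated B16F0 stood 8.4-fold and untreated B16F10 4.8-fold above untreated Melan-A, with log2 differences of 3.07 ± 0.028 and 2.26 ± 0.028 (adjusted p = 1e-35 and 2.1e-32). SX-682 changed it by -0.73 ± 0.032 in Melan-A cells, -0.28 ± 0.025 in B16F0 and -1.01 ± 0.027 in B16F10 (log2, adjusted p = 1.4e-17, 1.1e-10 and 3.8e-23). B16F0 lost the least, 17.6%, and B16F10 the most, 50.5%, a difference of -0.73 ± 0.037 (log2, adjusted p = 2.6e-15).

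Pmel, the head-to-head neighbour, shares 34 exonic bases with Cdk2 on the opposite strand, 0.547% of the exonic bases of Cdk2. Its mean level was 8.11 CPM in untreated Melan-A, 4510 CPM in B16F0 and 5340 CPM in B16F10, so both genes were far higher in the B16 lines. Between the B16 lines they went opposite ways, by 0.24 for Pmel and -0.81 for Cdk2 (log2, untreated B16F10 minus B16F0). Mitf was at 103 and 101 CPM in untreated Melan-A, 371 and 362 CPM in B16F0 and 420 and 420 CPM in B16F10. After SX-682 it was at 78 and 80.5 CPM, 86.8 and 82.4 CPM, and 186 and 194 CPM. The largest loss of Mitf was in B16F0, the line with the smallest loss of Cdk2. The SX-682 log2 fold change of Pmel was -0.02 in Melan-A (adjusted p = 0.79), -0.14 in B16F0 and -0.44 in B16F10, the line in which Cdk2 also lost most. The part of Pmel reads or of Mitf in the Cdk2 values was not tested.

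**Figure D4:**
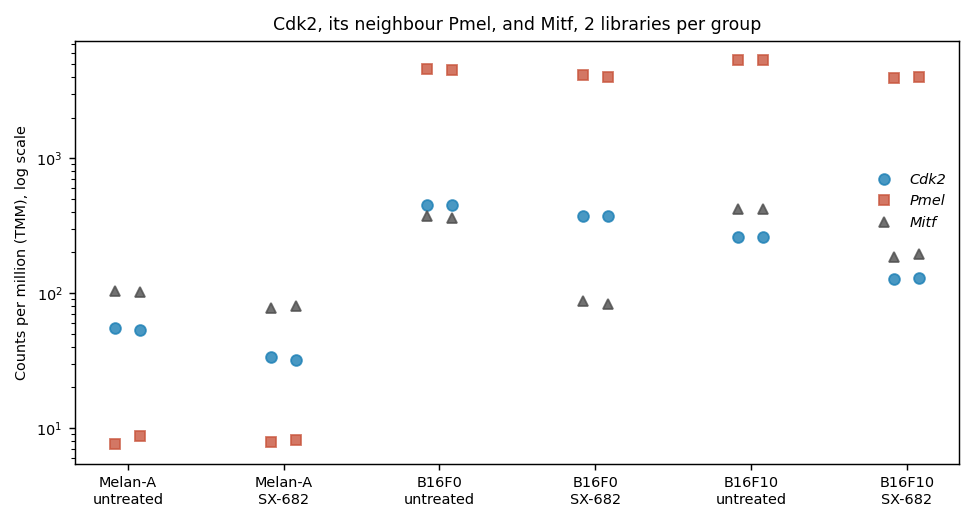
CPM (TMM-scaled, log axis) of Cdk2, its neighbour Pmel and Mitf in the 6 groups, with 2 points per group for the 2 libraries. Cdk2 runs from 31.7 to 453 CPM and Pmel from 7.53 to 5350 CPM, both lowest in Melan-A, and Mitf falls to 86.8 and 82.4 CPM in treated B16F0.

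Cdk4 encodes the main G1 partner of the D-type cyclins (chromosome 10, 127063534 to 127067920, plus strand), and its promoter above carries the 4 E-boxes. Of the 10 members its SX-682 change varied least over the lines. Untreated libraries held 264 and 271 CPM in Melan-A cells, 248 and 250 CPM in B16F0 and 319 and 308 CPM in B16F10. Treated ones held 254 and 249 CPM, 225 and 240 CPM, and 263 and 273 CPM. Treated libraries lay just under the untreated ones of their line without overlap. The change was -0.09 ± 0.029 in Melan-A and -0.1 ± 0.029 in B16F0 (log2, adjusted p = 0.01 and 0.0049), and both calls were lost when certain single libraries were left out. For Melan-A these were the second untreated library (-0.07, adjusted p = 0.1) and the second SX-682 library (-0.07, adjusted p = 0.14), and for B16F0 the first SX-682 library (-0.05, adjusted p = 0.18). In B16F10 the change was -0.23 ± 0.029 (adjusted p = 6.5e-08). Tspan31, on the opposite strand, shares 19.7% of the exonic bases of Cdk4 and had SX-682 changes of 0.21, 0.17 and 0.1 (log2), in the other direction.

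Cdk6 encodes the second partner of the D-type cyclins (chromosome 5, 3341485 to 3531008, plus strand) and was the low one of the pair. Untreated libraries held 79.1 and 80.4 CPM in Melan-A cells, 55.9 and 56 CPM in B16F0 and 34.1 and 35.4 CPM in B16F10. With SX-682 they held 67.2 and 63.6 CPM, 59.7 and 59.4 CPM, and 30.1 and 29.1 CPM. The lines stood in the order Melan-A, B16F0 and B16F10 in both states, with no overlap between groups. Its SX-682 change was -0.29 ± 0.038 in Melan-A and -0.23 ± 0.045 in B16F10 (log2, adjusted p = 1.6e-07 and 5.9e-05). In B16F0 it was 0.09 ± 0.04 (adjusted p = 0.064, but 0.03 with RLE scaling, 0.022 with a minimum of 10 counts and 0.049 with only that line in the fit), above that in Melan-A by 0.38 ± 0.055 (adjusted p = 2.1e-06). Per kilobase Cdk6 was 6.48% ± 0.045 of the Cdk4 and Cdk6 sum in untreated Melan-A, 4.97% ± 0.028 in B16F0 and 2.51% ± 0.13 in B16F10 (SD, n = 2).

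Without treatment, 9 of the 10 members differed between B16F0 and Melan-A and all 10 in each of the other pairs, beside 75.9%, 74.2% and 62% of all genes. By direction, 6 members were lower and 3 higher in B16F0 than in Melan-A (40.6% and 35.3% of all genes), 4 lower and 6 higher in B16F10 than in Melan-A (40.8% and 33.4%), and 5 lower and 5 higher in B16F10 than in B16F0 (31.2% and 30.8%). A log2 difference of at least 0.5 was reached by 4, 6 and 6 members, beside 52.9%, 50.3% and 33.9% of all genes. These shares are high for any gene, so the sizes say more than the counts. Only Cdk2 and Ccnd2 were higher in both melanoma lines by more than a log2 difference of 1. Against Melan-A, Ccna2, Ccnb1 and Cdk6 were lower in both, with log2 differences of -0.16, -0.2 and -0.51 in B16F0 and -0.75, -0.55 and -1.2 in B16F10. Ccnd1 was lower in both too, with -1.7 and -0.18, and Ccne1 was higher in both, with 0.21 and 0.8. The median over all genes was -0.06 and -0.1 in these comparisons, which the smallest differences should be read against.

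Ranked per kilobase, Ccnd1 was first in untreated Melan-A at 201 CPM per kilobase, followed by Cdk4 at 82.3, Ccna2 at 53.2 and Ccnb1 at 44.4. Ccnd2 and Ccnd3 came next there at 34.1 and 33.8, and their libraries overlapped. In untreated B16F0 the order was Ccnd2 at 129, Cdk4 at 76.6, Cdk2 at 72.8 and Ccnd1 at 61.8 CPM per kilobase. In untreated B16F10 it was Ccnd1 at 177, Ccnd2 at 123, Cdk4 at 96.5 and Cdk2 at 41.6 CPM per kilobase. Cdk6 was last in each of these groups, at 5.7, 4 and 2.48 CPM per kilobase. After SX-682 Ccnd2 led in both B16 lines, at 103 and 100 CPM per kilobase, and in B16F10 Cdk4 and Ccnd1 overlapped at 82.4 and 82 CPM per kilobase. Ccne2 was last in treated Melan-A and treated B16F0, at 3.13 and 1.98 CPM per kilobase.

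Other genes of the pathway came from 11 lists with 107 genes, of which 106 passed the filter. In Melan-A 70 fell and 23 rose, in B16F0 69 fell and 14 rose, and in B16F10 53 fell and 28 rose. In all 3 lines 40 fell and 7 rose. Of all genes 24.7%, 25% and 25.3% were lower in the 3 lines and 23.4%, 25.1% and 25.5% higher. In all 3 lines 11.7% were lower and 11.3% higher. The shares of pathway genes that rose in Melan-A and B16F10 were near this background, which includes genes with few counts. It was not split by direction for the better counted genes. The same shares of all genes stand behind the counts of single lists that follow. The median log2 fold change over these genes was -0.4, -0.23 and -0.08, beside 0 over all genes.

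The S phase list held 18 genes of DNA replication. In Melan-A and B16F0 16 of its genes fell, and in B16F10 17 fell, with median log2 fold changes of -0.49, -0.45 and -0.75. Cdt1 rose in Melan-A and B16F0, by 0.1 and 0.16 (log2), and was the only gene of the list that rose in any line. Cdc6, which loads the replicative helicase, changed by -1.02, -0.9 and -1.86, and the flap endonuclease gene Fen1 by -0.89, -1.11 and -1.71 (log2). Of the G2 and M list, also 18 genes, 18 fell in Melan-A cells, 17 in B16F0 and 7 in B16F10, where 3 rose. Its medians were -0.74, -0.35 and -0.03. Plk1, a mitotic kinase gene, changed by -1, -0.54 and -0.16, and the kinetochore gene Cenpf by -1.23, -0.32 and -0.09 (log2). The S phase list thus had its lowest median in B16F10, as Ccne1 and Ccne2 had their largest change there, and the mitotic list had its lowest in Melan-A, as Ccna2 and Ccnb1 had theirs. No test was made of the lists against each other.

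**Figure D5:**
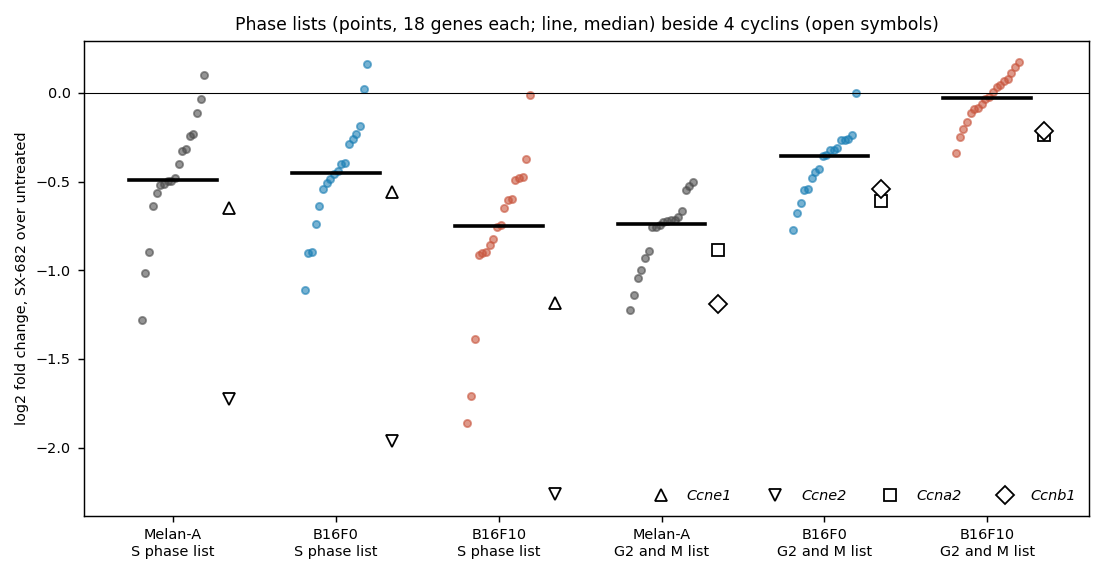
Log2 fold change, SX-682 over untreated, of the 18 S phase and 18 G2 and M genes in each line (points, with the median as a line) and of Ccne1, Ccne2, Ccna2 and Ccnb1 (open symbols). The G2 and M medians run from -0.74 in Melan-A to -0.03 in B16F10, while the S phase median is lowest in B16F10 at -0.75.

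Among the E2F factors and partners, 10 genes, 7 fell in Melan-A and 8 in each melanoma line, while 1 rose in Melan-A and 2 in B16F10. Those that rose were E2f5 in both of these lines, by 0.36 and 0.3, and Tfdp2 in B16F10, by 0.29 (log2), named after their values were seen. E2f2, an activating E2F, changed by -1.16, -0.92 and -2, and E2f8, an atypical repressor, by -1.59, -1.35 and -1.07 (log2). Of the pocket proteins, Rb1 rose in every line, by 0.18, 0.56 and 0.46, and Rbl1, which encodes p107, changed by -0.56, -0.38 and -0.31 (log2). Of 7 genes of CDK phosphatases, inhibitory kinases and CKS proteins, 7 fell in Melan-A and 4 in B16F0. In B16F10 3 fell and 2 rose, Cdc25b by 0.15 and Cdc25c by 0.82 (log2). Cdc25a, the phosphatase gene that removes inhibitory phosphates from CDK2, changed by -0.78, -0.58 and -1.61. Cks2, which encodes a small CDK subunit, changed by -0.76, -0.33 and -0.15. By fitted value, E2f2 and Cdc25a ranked the lines as Ccne1 did, and E2f8, Rbl1 and Cks2 ranked them as Ccnb1 did. The E2F genes were thus not of 1 order. For Ccne1 itself the changes of B16F0 and Melan-A did not differ in the direct test (adjusted p = 0.31). These orders were compared after the values were seen.

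Of 8 genes taken by a kinase inhibitor symbol (Cdkn), 4 rose and 4 fell in Melan-A. In B16F0 2 rose and 2 fell, and in B16F10 1 rose and 1 fell. Cdkn3, counted here by its symbol only, fell in Melan-A and B16F0, by -0.65 and -0.97 (log2). Cdkn2a and Cdkn2b in both B16 lines and Cdkn1c in B16F10, at 0 to 1 counts, could not be called. Cdkn1b, which encodes the CDK2 inhibitor p27, rose in every line. Melan-A held between 163 and 166 CPM of it without and between 210 and 212 CPM with SX-682. For B16F0 these values were 117 to 118 CPM and 227 to 239 CPM, and for B16F10 124 CPM and 234 to 235 CPM. The log2 fold changes of Cdkn1b were 0.36, 0.99 and 0.91 (adjusted p = 2.7e-12, 2.9e-22 and 1.5e-21). Cdkn1a rose in Melan-A and B16F0 only, by 0.48 and 0.45, and changed by 0.02 in B16F10 (log2, adjusted p = 1.3e-15, 1.8e-15 and 0.65). Cdkn2a and Cdkn2b, genes of INK4 inhibitors of CDK4 and CDK6, had 0 counts in all 8 libraries of the B16 lines. This allows up to 0.0623 CPM in the shallowest of these libraries. The other INK4 genes, Cdkn2c and Cdkn2d, were present in the B16 lines, at 56.1 to 93.9 CPM and 61.4 to 72.5 CPM. Cdkn2a was at 187 CPM in both untreated Melan-A libraries and between 212 and 215 CPM with SX-682. Cdkn2b was between 41.9 and 43.7 CPM and between 71.8 and 74.7 CPM there. Unlike these, Cdkn2c and Cdkn2d fell in Melan-A, by -1.24 and -0.19 (log2). In B16F0 they changed by -0.07 (not called) and -0.14, and in B16F10 by -0.2 and -0.01 (not called).

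In the list of cyclin and inhibitor degradation, 11 genes, 7 fell and 2 rose in Melan-A, 8 fell and 3 rose in B16F0, and 4 fell and 3 rose in B16F10. Skp2, the F-box protein gene whose product targets p27, changed by -1.04, -0.71 and -1.23, and Skp1a, its adaptor, by -0.6, -0.54 and -0.71 (log2). Of the remaining cell-cycle cyclins 3 were tested, and 2 fell in Melan-A and in B16F0. In B16F10 1 fell and 2 rose. Ccnf fell in each line, with log2 fold changes of -1.59, -1.54 and -1.02. Ccnb2 fell in Melan-A and B16F0, by -0.775 and -0.434, but rose in B16F10, by 0.265 (log2). Ccna1, the other that rose in B16F10, had at most 20 counts in its libraries. Cdk1, the mitotic kinase gene, changed by -0.6, -0.47 and -0.26, in the same order of lines as Ccna2 and Ccnb1. Mnat1, a subunit gene of the CDK-activating kinase, rose by 0.36, 0.61 and 0.68 (log2). Cdk7 and Ccnh, of the same kinase, rose in Melan-A only, by 0.12 and 0.16. Cdk7 fell in B16F0, by -0.315, and was not called in B16F10. Ccnh was not called in either B16 line.

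Likeness to each member was measured as the root mean square difference of centred log2 CPM over the 12 libraries, among 9887 genes. For Ccna2 the nearest were Kif14, Bub1b and Depdc1a, at 0.057, 0.076 and 0.081. For Ccnb1 they were Kif20b, Cep55 and Ube2c, at 0.116, 0.128 and 0.144. For Ccne2 they were Dido1, Ppp1r10 and Sfpq, at 0.29, 0.31 and 0.315, and for Cdk2 Celf2, Scn8a and Pik3cd, at 0.279, 0.316 and 0.352. The difference grows with the spread of a gene's own profile, whose SD was 0.374 for Ccna2, 0.39 for Ccnb1, 1.03 for Ccne2 and 1.41 for Cdk2 (log2), so these values do not rank the members by closeness. Ccnd1 was nearest to Nacc2 (0.146), Ccnd2 to Cd59a (0.097), Ccnd3 to Arpc5 (0.045), Ccne1 to Sdhd (0.102), Cdk4 to Tmco1 (0.046) and Cdk6 to Crtc1 (0.103). These values describe the same libraries and carry no test.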

How the data were processed

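Total RNA of cultured cells gave 12 libraries, 2 in each of 6 groups. The authors deposited raw counts of reads per gene, with gene coordinates and exonic lengths. The submitters' notes name cutadapt, STAR, DESeq2 and mm10, without versions. The counting program and its use of strand are not given in the sources used here. The totals per library, which set the counting error, were between 48876982 and 85322092, and a floor of 3 counts corresponds to 0.033 to 0.0623 CPM, for counting error only. Counts were fitted in edgeR 4.0.16 (R 4.3.3) for all 12 libraries at once, with TMM scaling, the filterByExpr filter (18338 genes kept), glmQLFit and glmQLFTest, and Benjamini-Hochberg adjustment at 0.05. The fit had 6 residual degrees of freedom. Standard errors are the log2 fold change divided by the square root of F. CPM per kilobase used the deposited length. Positions are those of the table, on GRCm38. DESeq2 1.42.0, RLE scaling, other filters, a stricter p of 0.01, a log2 limit of 0.5, a replicate block and each library left out were the alternatives. The script was tested on simulated data.

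The members and gene lists were chosen with earlier results of these data known. All members are named. From each pathway list, the 2 genes with the largest mean change among those passing in all 3 lines in 1 direction are named, and others where a sentence turns on them, after their values were seen. For likeness, the 3 nearest of genes with a mean log2 CPM of at least 3 were taken. Libraries of a group differed by more than sampling noise (chi-square per gene between 2.726 and 5.046), so none was counted as a repeat. Over 9897 genes, same-numbered libraries deviated from their group means with a correlation of -0.106 in Melan-A cells, -0.032 in B16F0 and -0.0383 in B16F10, so the numbers were not taken to pair libraries.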

Additional observations from a re-analysis of the deposited data

Results flagged for a closer look

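For each of the 10 members the SX-682 change differed among the lines in a direct test (edgeR quasi-likelihood F-test of the interaction, as passed by 47.4% of all genes). The range of the log2 fold change over the 3 lines was 0.97 for Ccnb1, 0.73 for Cdk2, 0.65 for Ccna2, 0.62 for Ccne1, 0.54 for Ccnd1 and 0.54 for Ccne2. It was 0.38 for Cdk6, 0.22 for Ccnd3, 0.18 for Ccnd2 and 0.14 for Cdk4. The adjusted p was between 6.3e-17 for Ccnb1 and 0.0079 for Cdk4. Cdk4 did not pass without the first untreated B16F10 library (adjusted p = 0.069) or the first SX-682 B16F10 library (adjusted p = 0.05, not under the threshold). The direction was the same in all 3 lines for 9 members, and Cdk6 had a fitted value above 0 in B16F0 only. Groups of 2 libraries are too small for a search for libraries that stand apart.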

How the results depend on the processing

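Of 60 comparisons of a member, 54 kept their direction and their side of the threshold under RLE scaling, DESeq2, both other filters, fits of fewer lines, the block and each library left out (limits on p and fold aside), and none reversed. With a log2 limit of 0.5 added, fewer genes counted by construction, 6, 5 and 4 members in place of 10, 9 and 10 for SX-682 in Melan-A, B16F0 and B16F10, and 49, 30 and 31 pathway genes in place of 93, 83 and 81. Between untreated lines, 4 members passed it for B16F0 against Melan-A, 6 for B16F10 against Melan-A and 6 for B16F10 against B16F0. Leaving out single libraries gave 9 to 10, 8 to 9 and 10 members with SX-682, and 86 to 89, 79 to 83 and 77 to 80 pathway genes. It gave 9 to 10 members in each untreated comparison and in the test among lines. A lone library in a group is there assumed to vary like the others.

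Some calls changed, and the cause was not tested. Ccnd2 between untreated B16F10 and B16F0 lost its call without the first untreated B16F0 library (adjusted p = 0.1), the first untreated B16F10 library (0.082) or the second (0.068). Ccnd3 between untreated B16F0 and Melan-A gained one with RLE scaling (-0.08, adjusted p = 0.0081), DESeq2 (0.0069), a minimum of 10 counts (0.0028) or without the first untreated Melan-A library (0.026). Cdk6 in B16F0 became called higher with RLE scaling (0.1, adjusted p = 0.03), a minimum of 10 counts (0.1, adjusted p = 0.022) and only that line in the fit (0.09, adjusted p = 0.049). Cdk4 between B16F10 and B16F0 changes lost its call without 1 of 3 libraries (adjusted p between 0.081 and 0.11), and Ccne2 there gained one under 11 alternatives, with RLE scaling at -0.32 (adjusted p = 0.039). Without the first untreated Melan-A or the second untreated B16F0 library, the Ccne2 changes of B16F0 and Melan-A also differed (adjusted p = 0.016 and 0.034).

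When the replicate number entered as a block, member counts stayed at 10, 9 and 10 with SX-682, at 9, 10 and 10 between untreated lines and at 10 among lines, and the block changed only the Ccne2 call between the changes of B16F10 and B16F0 (adjusted p = 0.034). With the Melan-A numbers crossed, a pairing added after seeing the data, 10 members passed in Melan-A. The share of Ccnd1, Ccne2 or Cdk6 in its family did not overlap between treated and untreated libraries in 8 of 9 cases, also with the longest transcripts, and in 8 to 9 without single libraries. These cases differ in direction. The shares of Ccnd1 and Ccne2 were lower with SX-682 in every line, and that of Cdk6 was lower in Melan-A but higher in B16F0. An exact permutation test of 2 libraries against 2 cannot go below 0.333, and no such count was made over all genes.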

Other observations

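Cyclins and CDKs of transcription and other tasks had calls in both directions. Over all genes the shares were 24.7%, 25% and 25.3% lower and 23.4%, 25.1% and 25.5% higher in Melan-A, B16F0 and B16F10. Of 11 such cyclins, 4 rose and 3 fell in Melan-A, 3 rose and 4 fell in B16F0, and 5 rose and 4 fell in B16F10. Ccnc, the cyclin gene of the Mediator kinase module, fell in each line, with log2 fold changes of -0.4, -0.66 and -0.35, and Ccni rose, by 0.25, 0.23 and 0.6. Of 13 such kinases, 6 rose and 4 fell in Melan-A, 3 rose and 5 fell in B16F0, and 8 rose and 5 fell in B16F10. In B16F10 both shares of these kinases were above those of all genes, with a median log2 fold change of 0.28 beside 0. The shares of all genes include genes with few counts. Cdk14 rose by 0.33, 0.16 and 0.36, and Cdk16 changed by -0.09, -0.08 and -0.14. The medians of these cyclins and kinases, between -0.09 and 0.28, lay nearer to 0 than those of the E2F list, which were between -0.82 and -0.65.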
